A study of Mus musculus with 64 samples.

Results

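The mRNAs described here are 10 of the transcripts encoded in mitochondrial DNA (mtDNA), measured in hearts of mice with and without a cardiomyopathy transgene. They were taken by name and are 10 of 16913 genes in the count table. They comprise mt-Nd1, mt-Nd2, mt-Nd4, mt-Nd5 and mt-Nd6, which encode core subunits of complex I, mt-Cytb, which encodes the cytochrome b of complex III, mt-Co1, mt-Co2 and mt-Co3, which encode the catalytic core of complex IV, and mt-Atp6, which encodes a membrane subunit of the ATP synthase. All 10 passed the filter on low counts, and every library held at least 54703 counts for each of them.

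The mice were C57BL/6J, either with a cardiac troponin T transgene, cTnT-delta160E (TG), which serves as a mouse model of hypertrophic cardiomyopathy, or without it (nTG). Trained mice ran high-intensity interval sessions (HIIT) on a treadmill over 6 weeks and were compared with sedentary mice. The labels name 8 groups, each with libraries from separate mice. Of the nTG males (M), 7 were sedentary and 8 trained, and of the TG males 9 and 8. Of the nTG females (F), 8 were sedentary and 10 trained, and of the TG females 8 and 6. The promoter that drives the transgene and the age of the mice are not given in the sources used here. Libraries were made from total RNA after depletion of ribosomal RNA, per the labels' protocols.

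The columns of the gene table, read by their names, went against the labels. By name, 32 of 64 columns contradicted the labelled sex and 30 the labelled genotype. Each column of the lncRNA table was therefore given the gene column that correlated best with it over 389 autosomal transcripts, and the label of the lncRNA column was used. All 64 pairs were mutual best matches, with r from 0.690 to 0.835 against at most 0.410 for the next best column. After this join no library contradicted its sex or genotype, and Tnnt2, the mouse gene for cardiac troponin T, ran from 2665 to 3428 CPM (counts scaled to 1e6 per library) in nTG and from 6903 to 12001 CPM in TG libraries. No measured value checks the training label or the replicate number, so every comparison of trained with sedentary mice rests on the labels of the lncRNA columns. With columns by name, none of the 10 mRNAs passed the test in any of the 12 comparisons made here. Counts over all genes came to between 34.6 M and 67.1 M per library (M here for 1e6 counts). Markers of cardiomyocytes summed to a median of 117106 CPM, against 912 CPM for fibroblast, 159 CPM for macrophage and 3.57 CPM for adipocyte markers.

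Mitochondrial DNA is transcribed from both of its strands into long precursors that are cut into single mRNAs, rRNAs and tRNAs. Its proteins are hydrophobic core subunits that assemble with many more subunits encoded in the nucleus, translated in the cytosol and imported. Cardiac muscle is rich in mitochondria, and the mRNAs of mtDNA are among the most abundant RNAs in it.

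The positions below are from GENCODE M21 on GRCm38, the build that the submitters' processing notes name. Complex I mRNAs lie at chrM:2751-3707 (mt-Nd1), chrM:3914-4951 (mt-Nd2), chrM:10167-11544 (mt-Nd4), chrM:11742-13565 (mt-Nd5) and chrM:13552-14070 (mt-Nd6). The mRNA mt-Cytb lies at chrM:14145-15288. Those of complex IV lie at chrM:5328-6872 (mt-Co1), chrM:7013-7696 (mt-Co2) and chrM:8607-9390 (mt-Co3), and mt-Atp6 lies at chrM:7927-8607. All are coding genes without introns, and mt-Nd6 alone among the 10 is read from the minus strand of the reference. Neighbouring genes share bases. The end of mt-Nd5 overlaps mt-Nd6 on the opposite strand by 14 bases, mt-Atp8 overlaps mt-Atp6 by 43, mt-Nd4l overlaps mt-Nd4 by 7, and mt-Atp6 and mt-Co3 share 1.

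The opposite strand gives mt-Nd6 another base composition, which the first 60 bases of it and of mt-Nd5 show, with each G in capitals. The mt-Nd6 stretch holds 12 G and the mt-Nd5 stretch 0.
mt-Nd6: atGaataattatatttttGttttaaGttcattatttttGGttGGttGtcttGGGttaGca
mt-Nd5: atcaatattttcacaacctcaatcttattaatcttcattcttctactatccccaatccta
Over its whole length mt-Nd6 is 28.1% G and 5.97% C, while the other 9 run from 8.00% to 16.1% G and from 23.8% to 27.8% C. Whether counting used the strand is not given in the sources used here, so reads of mt-Nd6 cannot be told apart from those of the opposite precursor strand. The last 40 bases of mt-Nd5 end in the stretch that both genes hold, in capitals.
mt-Nd5, last bases: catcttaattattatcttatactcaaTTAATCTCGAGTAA

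Several of the mRNAs also have near-perfect copies in the nuclear genome, annotated as pseudogenes and counted as genes of their own. A copy was defined as a transcript with at least 95% identity over at least 250 bases. By this measure 7 of the 10 had a copy in the table (9 copies in all), and mt-Nd1, mt-Nd6 and mt-Cytb had none. A block on the minus strand of chromosome 1, from chr1:24611535-24612410 (Gm28439) to chr1:24615706-24616197 (Gm29216), holds copies that are identical to the first 876 bases of mt-Nd4, to 783 bases of mt-Co3 (Gm28437), to 678 bases of mt-Atp6 (Gm10925) and to 681 bases of mt-Co2 (Gm28661). The starts of mt-Co3, mt-Atp6 and their copies are printed to show this identity, since no read from within these bases can be placed by its sequence.
mt-Co3: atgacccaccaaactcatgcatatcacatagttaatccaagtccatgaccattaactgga
Gm28437: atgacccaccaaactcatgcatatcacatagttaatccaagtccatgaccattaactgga
mt-Atp6: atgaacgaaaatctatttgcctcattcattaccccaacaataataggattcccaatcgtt
Gm10925: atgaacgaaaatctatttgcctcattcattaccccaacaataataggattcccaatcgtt
The copy of mt-Co1 in the same block, Gm29216, covers the last 483 bases and differs from it by A1066T alone, with positions counted from the first base of the mt-Co1 mRNA. The stretch around it is shown with the differing base in capitals.
mt-Co1: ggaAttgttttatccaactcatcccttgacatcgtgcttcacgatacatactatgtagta
Gm29216: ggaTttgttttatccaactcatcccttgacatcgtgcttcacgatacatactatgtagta

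The deposited counts were divided between the mRNAs and these copies. Of the summed counts of mt-Atp6 and Gm10925, the copy held a median of 85.2% (range 82.1% to 92.7% over 64 libraries). Gm28661 held 74.5% (70.4% to 88.2%) of those of mt-Co2, and Gm28437 held 65.0% (55.95% to 90.6%) of those of mt-Co3. In contrast, Gm28439 held 7.85% (3.77% to 15.7%) of those of mt-Nd4, and Gm29216 held 0.0306% of those of mt-Co1. Outside the 10, Gm10222, identical to 294 bases of mt-Nd4l, held a median of 0.844%. Gm28438, with 1 difference from mt-Nd3, held a median of 37.9%. Why the shares differ between copies was not tested. Copies of mt-Nd2, mt-Nd5, mt-Co1 and mt-Co2 on chromosomes 2 and 13, at 95.2% to 97.6% identity, held at most 0.633% in any library. Counts of each mRNA were therefore also summed with those of its copies, and the calls that change with this are given both ways. The sum was chosen after the counts of the copies had been seen.

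**Figure D1:**
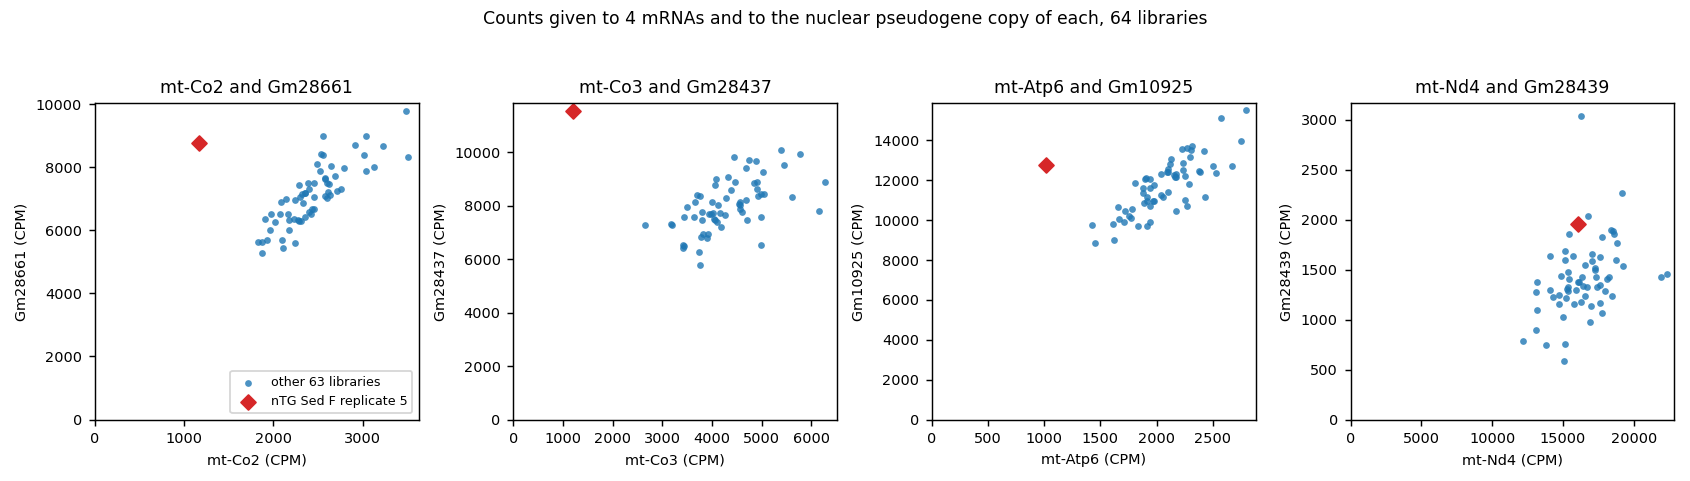
Counts given to mt-Co2, mt-Co3, mt-Atp6 and mt-Nd4 (x axes, CPM) and to the identical nuclear copy of each (y axes, CPM), with 1 point for each of 64 libraries. The diamond marks nTG sedentary F replicate 5, in which the copies held 88.2%, 90.6% and 92.7% of the summed counts of mt-Co2, mt-Co3 and mt-Atp6, the highest share of any library.

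Together the 10 mRNAs took 13.02% to 19.5% of a library, with a median of 16.1%, and 15.4% to 22.9% with the copies included. Levels can be compared between genes only per length, and on that scale mt-Co1 was highest, with a mean over 64 libraries of 38681 CPM per kilobase. Next came mt-Nd1 with 18970, mt-Cytb with 14262, mt-Nd2 with 14001, mt-Nd5 with 12460, mt-Nd4 with 11907 and mt-Nd6 with 10055 CPM per kilobase. As deposited, mt-Co3 (5446), mt-Co2 (3545) and mt-Atp6 (3022) stood below all of these. With the copies summed they rose to 15741, 13994 and 20260 CPM per kilobase, within the range of the other 7. The order of mt-Co2, mt-Co3 and mt-Atp6 among the 10 therefore depends on where shared reads were counted.

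The spread between libraries of one group also differed between the mRNAs. Over the 64 libraries, the SD of log2 CPM centred on the group mean was 0.12 for mt-Co1 and mt-Cytb. It was 0.13 for mt-Nd1 and mt-Nd4, 0.15 for mt-Nd5, 0.16 for mt-Nd2 and 0.27 for mt-Nd6. It was 0.29 for mt-Co3, 0.20 for mt-Co2 and 0.19 for mt-Atp6 as deposited, and fell to 0.13, 0.14 and 0.13 when the copies were summed. A single library, nTG sedentary F replicate 5, was lowest of all 64 in the 3 last-named mRNAs, with 1200 CPM of mt-Co3 where the other libraries of its group held 3445 to 4570 CPM. The fold changes below are log2 values with their standard errors from edgeR's quasi-likelihood test, with p-values adjusted by the Benjamini-Hochberg method over all 16913 genes and a threshold of 0.05. In bulk tissue, fewer cells of a type and less RNA per cell cannot be told apart.

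**Figure D2:**
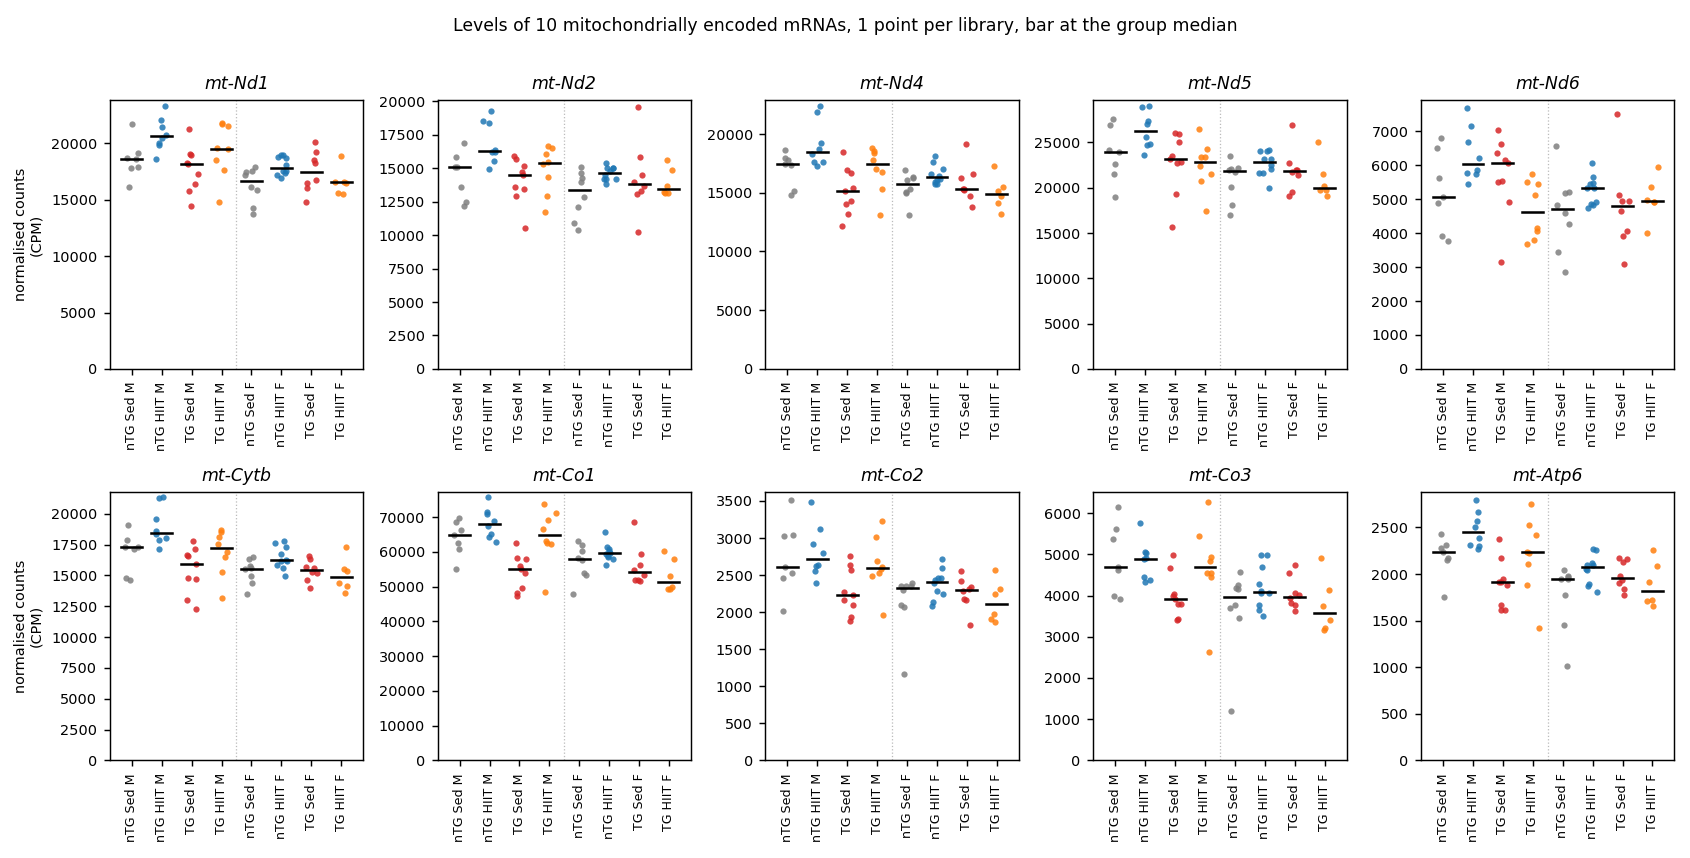
Level of each of the 10 mRNAs in CPM (y axes from 0) in the 8 groups (x axes), with 1 point per library and a bar at the group median; the dotted line divides males from females. The groups overlap in most panels, and mt-Co1 in sedentary TG males (median 54955 CPM) sits below the other male groups.

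Across the sexes, all 10 mRNAs were lower in females than in males on average over the 4 genotype and training strata, and 8 of the 10 passed the test, where 16.6% of all genes were called, 9.21% lower and 7.37% higher. The fitted differences ran from -0.11 to -0.23 with a median of -0.15, while the median over all genes was 0.000866. Of complex I, mt-Nd1 held 13719 to 20098 CPM in females (median 17324) and 14433 to 23350 CPM in males (median 19014). Its female to male log2 difference was -0.16 ± 0.03 (adjusted p = 0.000345, edgeR). The ranges of the sexes overlapped widely, with the lowest, median and highest values all lower in females. The differences were -0.12 ± 0.03 for mt-Nd4 and -0.14 ± 0.04 for mt-Nd5, both called. The estimate for mt-Nd2 was -0.11 ± 0.04 (adjusted p = 0.0683) and that for mt-Nd6 -0.15 ± 0.07 (adjusted p = 0.130), and neither passed.

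The cytochrome b mRNA mt-Cytb ran from 13477 to 17784 CPM in females (median 15617) and from 12299 to 21330 CPM in males (median 17217). Its difference was -0.13 ± 0.03 (adjusted p = 0.00255, edgeR). The highest males exceeded every female, while the lowest library of all was a male. In complex IV, mt-Co1 had medians of 58036 CPM in females and 63049 CPM in males and differed by -0.15 ± 0.03 (adjusted p = 0.000488, edgeR). As deposited, mt-Co2 and mt-Co3 both differed by -0.23 (SE 0.05 and 0.07) and mt-Atp6 by -0.19 ± 0.05. Summed with their copies they differed by -0.16 ± 0.04, -0.15 ± 0.04 and -0.14 ± 0.03, close to the other members, and all 3 still passed. In the labels males carry the library numbers 1 to 32 and females 33 to 64, so sex and labelled number cannot be told apart. The numbers in the names of the joined gene columns alternate between the sexes, except that 22 and 23 are both male.

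The nuclear partners were compared in the same way. Of 37 nuclear complex I genes 12 were called lower in females, as were 1 of 4 of complex II, 3 of 9 of complex III and 2 of 18 of the ATP synthase, while of 14 for complex IV only Cox8a was called, and it was higher (0.09 ± 0.02). Of all genes 9.21% were called lower and 7.37% higher. The medians of these lists ran from -0.04 to -0.08. The accessory subunit gene Ndufa11 was lower by -0.14 ± 0.03 and Uqcrc1, a core protein of complex III, by -0.10 ± 0.02. Beside these, 2 of 6 fibroblast markers were called higher and 3 of 9 cardiomyocyte markers lower in females. The summed fibroblast markers had a median of 956 CPM in females (693 to 1425) and 843 CPM in males (618 to 1719), and their part in the difference was not tested.

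The transgene was compared in each sex and training state. In sedentary males, mt-Co1 was the only one of the 10 that passed, and it was lower in TG, where 20.6% of all genes were called, 11.2% lower and 9.39% higher. It ran from 55182 to 69881 CPM in nTG libraries (median 64902) and from 47197 to 62637 CPM in TG libraries (median 54955). The log2 fold change was -0.24 ± 0.06 (adjusted p = 0.00414, edgeR). The groups overlapped, but the highest TG library lay below the nTG median. The call held without any single library of the groups compared, at fold changes from -0.27 to -0.21.

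The other complex IV members moved by similar amounts with larger errors, -0.26 ± 0.10 for mt-Co2 (adjusted p = 0.0519) and -0.29 ± 0.14 for mt-Co3 (adjusted p = 0.117). Summed with the copies, the differences were -0.28 ± 0.07 for mt-Co2 (adjusted p = 0.00453, edgeR) and -0.22 ± 0.07 for mt-Co3 (adjusted p = 0.0179), and both passed, so that 3 of 3 complex IV mRNAs were called lower. The estimate for mt-Atp6 was -0.21 ± 0.10 as deposited and -0.14 ± 0.07 when summed, and for mt-Cytb -0.13 ± 0.06. None of the 5 complex I mRNAs passed. They ran from -0.17 ± 0.07 for mt-Nd4 to 0.13 ± 0.14 for mt-Nd6, whose estimate was the only positive one of the 10. The number called was 4 without sedentary TG M replicate 7, and 2 without each of sedentary TG M replicates 3 and 8 and sedentary nTG M replicates 3 and 5.

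In trained males the members called were others. Both mt-Nd5 and mt-Nd6, the neighbours on opposite strands that end against each other, were lower in TG, 2 of 10 where 14% of all genes were called, 8.31% lower and 5.65% higher. The level of mt-Nd6 was 5457 to 7672 CPM in trained nTG libraries (median 6050) and 3688 to 5740 CPM in trained TG libraries (median 4625). Its fold change was -0.43 ± 0.14 (adjusted p = 0.0225, edgeR). The ranges met only between 5457 and 5740 CPM. The level of mt-Nd5 was 23613 to 28991 CPM in nTG (median 26307) and 17476 to 26493 CPM in TG (median 22869), and it fell by 0.23 ± 0.08 on the log2 scale (adjusted p = 0.0367, edgeR). The highest TG library stood just above the nTG median.

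The adjusted p-values of these calls lay near the threshold. Leaving out 1 of the 16 libraries at a time, mt-Nd5 lost its call in 8 fits, with an adjusted p of up to 0.113, and mt-Nd6 in 3 fits, with an adjusted p of up to 0.0596. No member was called without trained nTG M replicate 1, without trained TG M replicate 2 or without trained TG M replicate 4. A single member was called without trained nTG M replicate 4, 5 or 7 or trained TG M replicate 6, and mt-Nd5 also lost its call without trained TG M replicate 7. The fold changes stayed between -0.27 and -0.19 for mt-Nd5 and between -0.48 and -0.39 for mt-Nd6 in all 16 fits. The other 8 mRNAs had estimates from -0.19 to -0.04, with mt-Cytb at -0.17 ± 0.06 (adjusted p = 0.0529), mt-Co1 at -0.08 ± 0.06 and mt-Co3 at -0.04 ± 0.13.

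In females none of the 10 passed in either state. In sedentary females, where 4.37% of genes were called (2.78% lower, 1.58% higher), 9 of 10 estimates were above 0 and ran from -0.03 ± 0.06 for mt-Co1 to 0.17 ± 0.10 for mt-Atp6, and none reached an unadjusted p under 0.05. With the copies summed 8 of 10 were above 0, with mt-Nd2 highest at 0.13, and mt-Atp6 was 0.06 ± 0.07, mt-Co3 0.02 ± 0.07 and mt-Co2 -0.02 ± 0.07. Without sedentary nTG F replicate 5, as deposited, these 3 were 0.088, 0.02 and -0.01. In trained females, where 14.8% were called (9.43% lower, 5.37% higher), 10 of 10 estimates were below 0, from -0.17 ± 0.07 for mt-Co1 (adjusted p = 0.0702) to -0.07 ± 0.09 for mt-Nd2, and 2 reached an unadjusted p under 0.05. Without trained TG F replicate 2, 1 member was called. For mt-Co1, sedentary females ran from 47890 to 63231 CPM in nTG (median 57944) and from 51739 to 68507 CPM in TG (median 54086). Trained females ran from 56130 to 65797 CPM in nTG (median 59571) and from 49262 to 60198 CPM in TG (median 51475). Both pairs of groups overlapped. Whether the transgene effect differed between the sexes was not tested.

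Averaged over the 4 strata, all 10 estimates were below 0, from -0.13 to -0.04, with a median of -0.08 against 0.00671 over all genes. The test called 3 of them lower, where 39% of genes were called, 20.5% lower and 18.5% higher. These were mt-Co1 at -0.13 ± 0.03 (adjusted p = 0.00077, edgeR), mt-Nd4 at -0.11 ± 0.03 (adjusted p = 0.00652) and mt-Cytb at -0.11 ± 0.03 (adjusted p = 0.00626). With the copies summed, mt-Co2 at -0.13 ± 0.04, mt-Co3 at -0.10 ± 0.04 and mt-Atp6 at -0.09 ± 0.03 passed as well, which makes 6. Without sedentary nTG F replicate 5, in which the copies of mt-Co2, mt-Co3 and mt-Atp6 held their highest share, 5 passed as deposited.

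**Figure D3:**
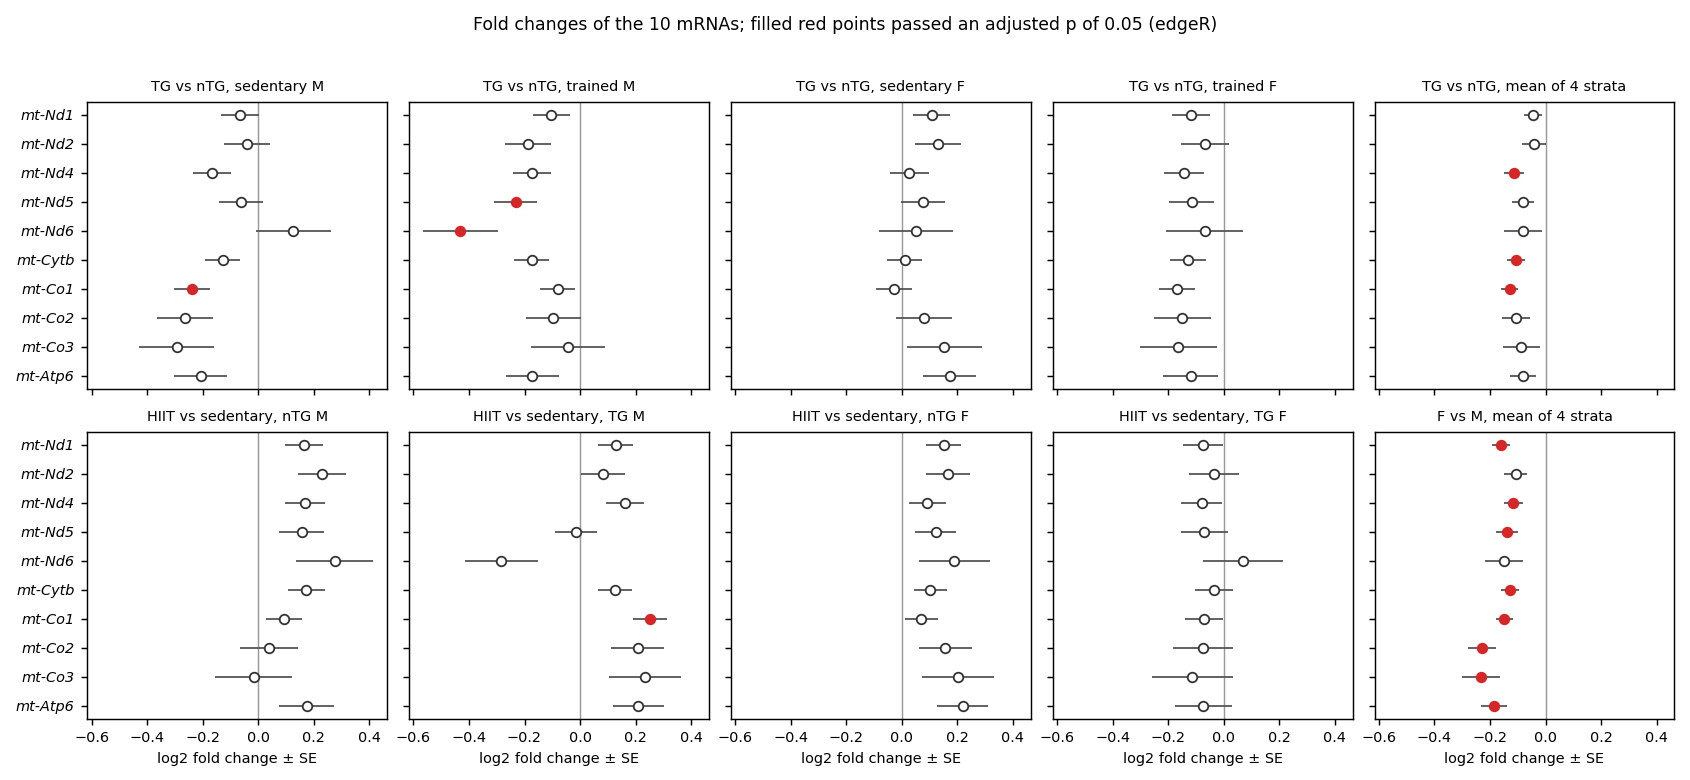
The log2 fold change of each mRNA (points, bars are the standard error) in the 8 comparisons of 2 groups and in the means over 4 strata, with filled red points past an adjusted p of 0.05. As deposited, 8 of 10 mRNAs passed between the sexes (16.6% of all genes called). Between TG and nTG over the strata 3 passed (39% of all genes). Both of these means use all 64 libraries. Comparisons of 2 groups, with fewer libraries and larger errors, called at most 2 (0% to 20.6% of all genes).

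Training was compared within each genotype and sex, and these comparisons share their sedentary or trained groups with those of the transgene above. In TG males mt-Co1 was higher after training, 1 of 10 where 18% of genes were called, 10.3% higher and 7.6% lower. Sedentary TG males held 47197 to 62637 CPM, as given above, and trained ones 48429 to 73915 CPM (median 64845). The fold change was 0.25 ± 0.06 (adjusted p = 0.00401, edgeR). Of the 8 trained libraries, 7 held at least 62158 CPM, and replicate 4 stood alone at 48429 CPM. Sedentary nTG males had a median of 64902 CPM, close to that of trained TG males.

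Of the other members in TG males, mt-Co2 at 0.21 ± 0.10 and mt-Co3 at 0.23 ± 0.13 did not pass as deposited, and passed when summed with their copies, at 0.27 ± 0.07 (adjusted p = 0.00696, edgeR) and 0.23 ± 0.07 (adjusted p = 0.0148). The estimates for mt-Nd4 (0.16 ± 0.07), mt-Nd1 (0.13 ± 0.06), mt-Cytb (0.13 ± 0.06) and mt-Atp6 (0.21 ± 0.09) were above 0 and not called. Those below 0 were mt-Nd5 at -0.01 ± 0.08 and mt-Nd6 at -0.28 ± 0.13 (adjusted p = 0.123). For mt-Nd6 the sedentary TG males ran from 3137 to 7025 CPM with a median of 6072, and 8 trained ones from 3688 to 5740 CPM with a median of 4625, with wide overlap. Without trained TG M replicate 4, 5 members were called higher, and without sedentary TG M replicates 7 and 1, 3 and 2 members were called.

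In the remaining training comparisons no member passed. In nTG males 9 of 10 estimates were above 0, up to 0.28 ± 0.14 for mt-Nd6 with a median of 0.17, and 4 reached an unadjusted p under 0.05. The estimate for mt-Co3 was -0.02 ± 0.14 as deposited and 0.08 ± 0.07 with its copy summed, where 10 of 10 were above 0. There edgeR called 0% of all genes, with 999 at an unadjusted p under 0.05, 4 called by DESeq2 and 1 by limma. In nTG females 10 of 10 were above 0 with a median of 0.15 (mt-Co2 0.16 and mt-Co3 0.20 as deposited, 0.07 and 0.08 summed), where 0.148% of genes were called, 0.124% higher and 0.0237% lower. In TG females 9 of 10 were below 0 with a median of -0.07 and 0% of genes called, where 606 genes had an unadjusted p under 0.05 and DESeq2 called 0 and limma 3.

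The test of whether training acted differently in TG and nTG hearts called no member and, with edgeR, no gene at all in either sex, 0% of those tested. In males 2503 genes had an unadjusted p under 0.05, DESeq2 called 13 and limma 300, and in females 1093 had one and neither tool called any. The largest difference among the members was that of mt-Nd6 in males, -0.56 ± 0.19 (unadjusted p = 0.00504, adjusted p = 0.195, edgeR). As deposited, 6 of 10 male estimates were below 0 with a median of -0.02, and 1 had an unadjusted p under 0.05. Of the female estimates 10 of 10 were below 0 with a median of -0.19, and 2 had an unadjusted p under 0.05. The 4 male medians of mt-Nd6 were 5065 CPM in sedentary nTG, 6050 in trained nTG, 6072 in sedentary TG and 4625 in trained TG. Those of mt-Co1, in the same order, were 64902, 68132, 54955 and 64845 CPM, and its interaction was 0.16 ± 0.09 (adjusted p = 0.404).

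The nuclear partners of the same complexes were examined in each comparison. In sedentary males, where 20.6% of all genes were called, 36 of 37 nuclear complex I genes were called, 35 of them lower, with a median of -0.26, where the 5 complex I members had none called. The accessory subunit gene Ndufa10 changed by -0.33 ± 0.05, while Ndufb4 was the one that rose (0.29 ± 0.07). In complex II, which has no mtDNA subunit, 4 of 4 were lower, with Sdha, the flavoprotein subunit, at -0.35 ± 0.06. In complex III 8 of 9 were lower (median -0.24), with the Rieske protein gene Uqcrfs1 at -0.35 ± 0.06. In complex IV 10 of 14 (median -0.31, beside 1 of 3 members as deposited and 3 of 3 summed) and in the ATP synthase 15 of 18 (median -0.27) were lower, among them Cox7a1, the muscle isoform, at -0.42 ± 0.07, Cox5b at -0.32 ± 0.06 and the genes of the alpha and beta subunits of the ATP synthase head, Atp5a1 at -0.32 ± 0.05 and Atp5b at -0.27 ± 0.05. The median of the 10 members was -0.15 and that of all genes -0.00521.

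In trained males 18 of 37, 2 of 4, 3 of 9, 7 of 14 and 6 of 18 nuclear genes of complexes I, II, III and IV and the ATP synthase were called (14% of all genes), all lower except Ndufb4, with medians from -0.16 to -0.09, beside -0.17 for the members. In sedentary females 8 of 37, 0 of 4, 0 of 9, 2 of 14 and 2 of 18 were called (4.37% of all genes). All were lower except Ndufb4, the medians ran from -0.15 to -0.10, and that of the members was 0.08. In trained females the counts were 21, 4, 3, 5 and 7 (14.8% of all genes), all lower except Ndufb4. The medians ran from -0.22 to -0.15, and that of the members was -0.12. The gene Cox7a1 was called lower in all 4 strata, at -0.42, -0.41, -0.30 and -0.28. Ndufb4 was called higher in all 4, at 0.29, 0.32, 0.41 and 0.41. No member was called in more than 1 of the strata. After training in TG males 16 of 37, 1 of 4, 3 of 9, 7 of 14 and 10 of 18 were called (18% of all genes), all higher, with medians from 0.12 to 0.19 beside 0.14 for the members. Examples are Ndufs1 at 0.29 ± 0.06, Cox6c at 0.36 ± 0.08 and Atp5f1 at 0.33 ± 0.07. No test of the members as a set against their partners was made.

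**Figure D4:**
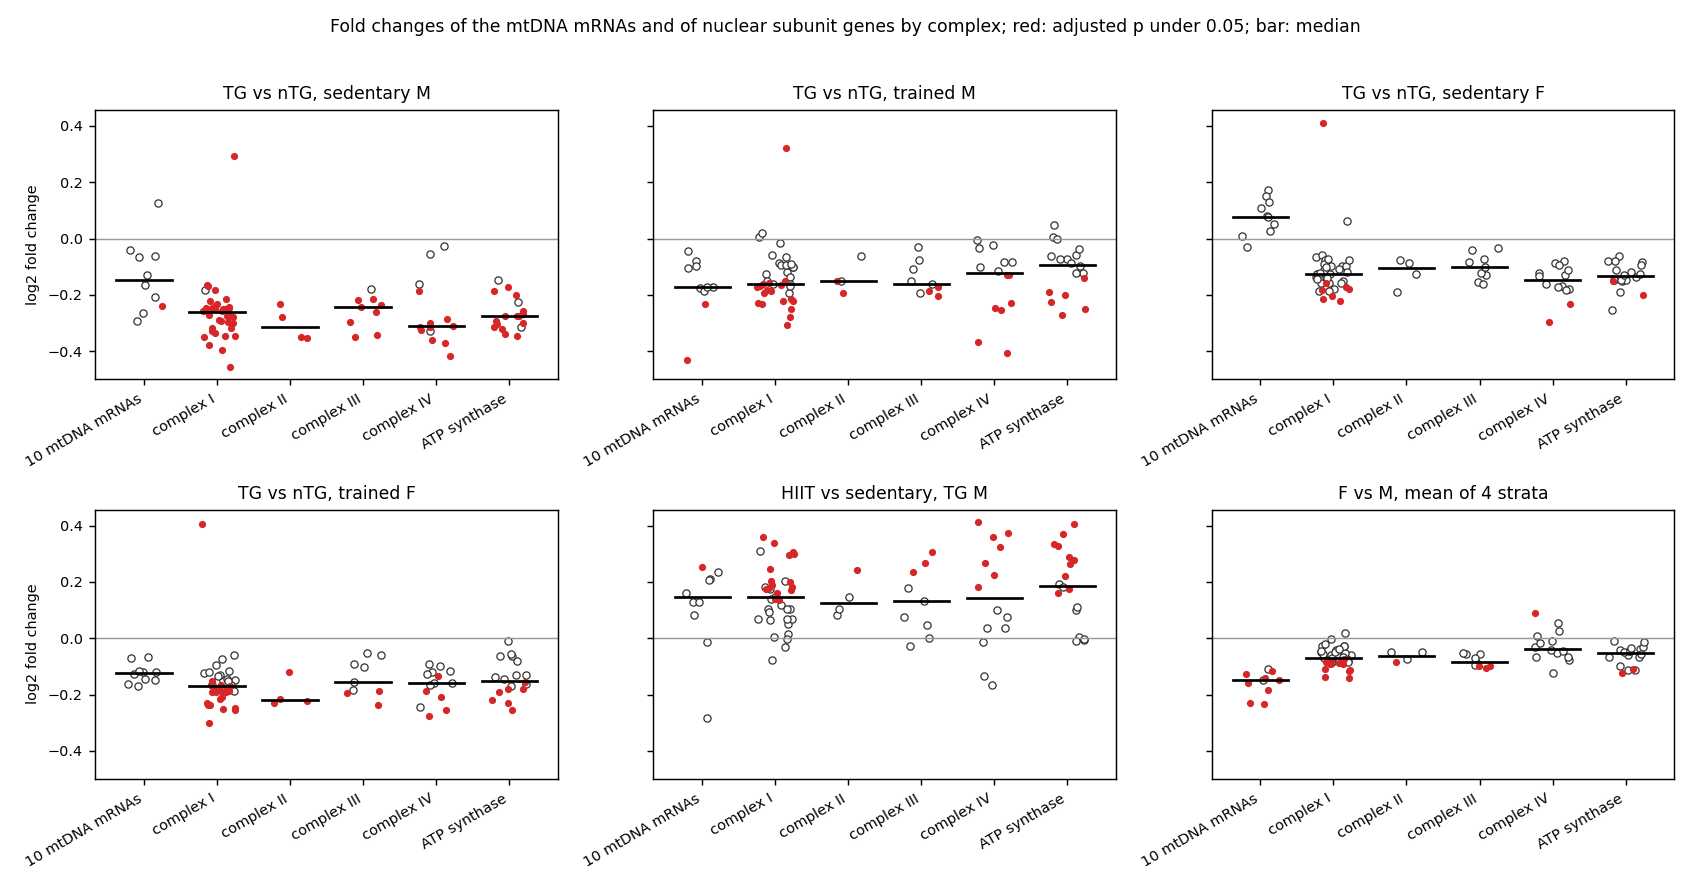
The log2 fold change (y axes) of the 10 mtDNA mRNAs and of the nuclear genes of complexes I to IV and the ATP synthase (x axes) in 6 comparisons, with 1 point per gene, red where the adjusted p was under 0.05 and a bar at the median. In sedentary females the member median is 0.08 and every nuclear median is below 0, and in the comparison of the sexes the members lie lowest.

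The genes that maintain and transcribe mtDNA and process its RNA were examined by their own lists. In sedentary TG males, where 20.6% of all genes were called, 9 of 18 genes of mtDNA maintenance were lower, among them Opa1, the inner membrane fusion GTPase (-0.25 ± 0.05), and 4 of 10 of mitochondrial RNA synthesis, among them Tfb1m, an rRNA methyltransferase (-0.31 ± 0.10). Of 25 genes of RNA processing and stability 5 were lower and 1 higher, with Lrpprc, which stabilises mitochondrial mRNAs, at -0.23 ± 0.05 and Ptcd2 at -0.31 ± 0.06. Of 12 nuclear regulators 4 were lower and 1 higher, with Pprc1, a coactivator related to PGC-1, at 0.29 ± 0.07. In trained TG males the polymerase gene Polrmt was -0.20 ± 0.05 and the mtDNA helicase gene Twnk -0.22 ± 0.05. After training in TG males, Tfam, which packages mtDNA, rose by 0.22 ± 0.05, Lrpprc by 0.23 ± 0.05 and Mterf3 by 0.29 ± 0.06. Across these 4 lists the numbers called after training in TG males were 8 of 18, 4 of 10, 9 of 25 and 5 of 12, beside 18% of all genes, and 2 of the last, Pprc1 and Ppargc1b, were lower. Between the sexes 6 of 18 (3 lower and 3 higher in females), 1 of 10 (lower), 6 of 25 (all lower) and 2 of 12 (both higher) were called, beside 16.6% of all genes. Of these Mgme1, a mitochondrial exonuclease gene, was higher in females (0.14 ± 0.03), as were Polg, the mtDNA polymerase (0.07 ± 0.02), Pprc1 (0.12 ± 0.03) and Ppargc1b (0.11 ± 0.04). Among the lower ones Trub2, a pseudouridine synthase, stood at -0.22 ± 0.03 and Taco1, a translational activator of mt-Co1, at -0.15 ± 0.02.

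Markers of other cell types moved with these comparisons. In sedentary males, where 20.6% of all genes were called, 6 of 6 fibroblast and 5 of 5 macrophage markers were higher in TG. There 5 of 9 cardiomyocyte markers were lower, with summed medians of 111730 CPM in TG and 117145 CPM in nTG. These medians were higher in TG in trained males (121086 against 119125 CPM), sedentary females (115537 against 112538) and trained females (119521 against 117391). The summed fibroblast markers ran from 722 to 964 CPM in nTG (median 791) and from 803 to 1393 CPM in TG (median 1228). In trained males, where 14% of all genes were called, 3 of 6 fibroblast markers were higher in TG and 5 of 6 blood markers lower. The summed fibroblast markers ran from 766 to 1719 CPM in TG (median 894) and from 618 to 851 CPM in nTG (median 748). In sedentary females, where 4.37% of all genes were called, 0 of 6 fibroblast and 0 of 5 macrophage markers were called. Fibroblast sums ran from 967 to 1283 CPM in TG (median 1141) and from 828.6 to 1425 CPM in nTG (median 920). In trained females, where 14.8% of all genes were called, 3 of 6 fibroblast and 4 of 5 macrophage markers were higher in TG. The fibroblast sums did not overlap there, at 959 to 1227 CPM (median 1024) against 693 to 944 CPM (median 774). None of 6 blood markers was called in females, with summed medians of 387 CPM in TG and 611 CPM in nTG when sedentary, and of 412 (344 to 611) and 689 CPM (577 to 801) when trained. After training in TG males, where 18% of all genes were called, 2 of 6 fibroblast, 3 of 5 macrophage and 6 of 6 blood markers were lower. The transcript Gm42418, which overlaps ribosomal RNA sequence, had a higher median in TG, with overlapping ranges: per 1e6 gene counts, sedentary TG males held 3579 to 5186 (median 3812) and sedentary nTG males 2639 to 4374 (median 3184). The part of these cells and of ribosomal RNA in the results was not tested.

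Within groups the members rose and fell together, in blocks. For this, log2 CPM was centred on the group mean over the 64 libraries and 110 relations were computed, with 100000 permutations each and p-values adjusted over all 110. Of the 45 pairs of members 38 passed on Pearson's r, with a median r of 0.53. The closest pair was mt-Nd4 and mt-Cytb, with r = 0.95, rho = 0.95 and r = 0.94 without the 2 libraries farthest from the median (adjusted permutation p = 1.96e-05, which rests on the smallest p that the permutations can give). The neighbours mt-Nd5 and mt-Nd6 had r = 0.83 and rho = 0.83 (r = 0.80 without 2 libraries). In contrast mt-Nd6 and mt-Co1 had r = 0.02 and rho = 0.06 (adjusted permutation p = 0.901).

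As deposited, mt-Co2, mt-Co3 and mt-Atp6 formed a block of their own, with r from 0.86 to 0.87 among themselves and a median r of 0.41 with the other 7. Summed with the copies, their median r with the other 7 was 0.66, and mt-Co3 and mt-Co1 had r = 0.92 and rho = 0.91 (r = 0.90 without 2 libraries, adjusted permutation p = 1.96e-05) where they had 0.41 as deposited. All 3 complex IV mRNAs then had r from 0.88 to 0.92 with each other, and mt-Nd6 stayed apart from them, at -0.09 to 0.02. The summed fibroblast markers ran against the members. Their r went from -0.74 (rho -0.64, r = -0.64 without 2 libraries) for mt-Co1 to -0.21 for mt-Nd6. For mt-Nd6 rho was -0.30 and r was -0.31 without 2 libraries. Its adjusted permutation p was 0.147 for r and 0.0275 for rho. The mean of the nuclear complex I genes ran with mt-Co1, with r = 0.74, rho = 0.64 and r = 0.63 without 2 libraries, and not with mt-Nd6 (r = -0.07, rho = -0.01). Library composition and depth are shared by all of these values.

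**Figure D5:**
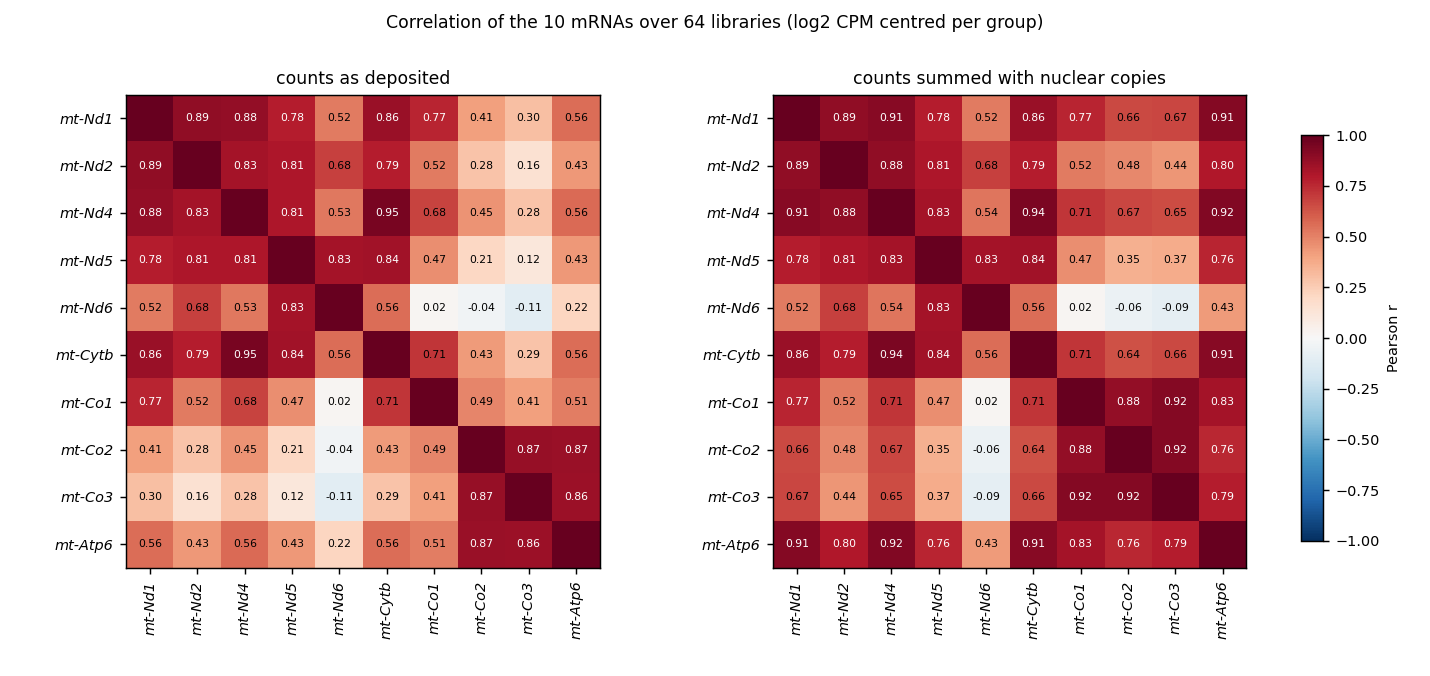
Pearson's r between the 10 mRNAs over 64 libraries (log2 CPM centred per group), with counts as deposited (left) and summed with the nuclear copies (right), on a colour scale from -1 to 1. As deposited mt-Co2, mt-Co3 and mt-Atp6 form a block, and after the sum mt-Co1, mt-Co2 and mt-Co3 have r from 0.88 to 0.92 while mt-Nd6 stays near 0 with them.

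Among 12046 nuclear genes with a mean of at least 50 counts, those whose centred levels were most like the mean of the 10 members over the 64 libraries were Ndufa3, an accessory subunit gene of complex I (r = 0.69), Asb15 (0.64), Ogdh, which encodes a subunit of the 2-oxoglutarate dehydrogenase of the citric acid cycle (0.63), Isca1, an iron-sulfur cluster assembly gene (0.63), and Hrc, which encodes a calcium-binding protein of the sarcoplasmic reticulum (0.61). The most unlike were Mmp2, a matrix metalloproteinase (-0.62), Fgl2 (-0.62), Adamts2, a procollagen peptidase (-0.62), Emilin1, an elastic fibre protein (-0.61), and Mrc2, a collagen receptor (-0.61). These genes were picked for their r, which is given as a description.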

How the data were processed

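Total RNA of 64 hearts was sequenced after rRNA depletion. The submitters' processing notes name cutadapt 2.3, FastQC 0.11.8, MultiQC 1.7, STAR 2.7.8a and RSEM 1.3.3 and the builds GRCm38 and mm10; the annotation and the strand setting are not given in the sources used here. The deposited gene table holds raw counts for 16913 Ensembl genes, of which 16879 matched GENCODE M21. The deposited lncRNA table holds expected counts, used only to join columns. Columns were matched on log2 CPM with a pseudocount of 0.5, each transcript centred on its mean, by Pearson's r over transcripts averaging at least 20 counts. Spearman's rho, or a mean of at least 50, gave the same 64 pairs.

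The members and lists were chosen with earlier results of these data known. Counts were fitted with edgeR 4.0.16 (R 4.3.3; TMM, filterByExpr, which kept all genes, quasi-likelihood F test) in 1 model with a mean per group, checked on simulated data. Alternatives were DESeq2 1.42.0, limma 3.58.1 (voom with quality weights), other scalings and filters, only the groups compared, the replicate number as a block, columns by name, each library left out, and summed copies. CPM use TMM-scaled totals, except in the column matching and the Tnnt2 check, which use plain library totals. With at least 54703 counts per member and library, the number of mice limits the precision. The p-values set differences between groups against the spread between these libraries. Copies were found with blastn 2.17.0. Beside the members, up to 2 rising and 2 falling genes per list and comparison could be named, those with the smallest p past the threshold, and the 5 genes most and least alike; not all of these are reported here. Adipoq, Ucp1, Myh1, Myh2, Myh4, Mylpf and Tnnt3 of the marker lists were not analysed here.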

Additional observations from a re-analysis of the deposited data

Results flagged for a closer look

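In 88 sets of values (10 mRNAs and their summed share, in 8 groups) each group's extreme libraries were set against its others. If the sets were independent, about 4.4 would by chance hold a library that stands apart by this measure, and 9 did. The sets share libraries and the mRNAs correlate, so these numbers show no excess. In sedentary nTG F replicate 5, mt-Co3 (1200 CPM, others 3445 to 4570) and mt-Co2 (1169 CPM, others 2072 to 2395) were low. In this library their copies held 90.6% and 88.2% of the summed counts, the highest shares of all libraries. In sedentary TG F replicate 4, mt-Nd5 (26961 CPM, others 19094 to 22749) and mt-Nd6 (7517 CPM, others 3094 to 5135) were high, and in replicate 7 of that group mt-Co1 was high (68507 CPM, others 51739 to 59349). In trained TG M replicate 4, mt-Co1 was low (48429 CPM, others 62158 to 73915). In trained TG F replicate 2, mt-Nd1 was high (18900 CPM, others 15501 to 16604), and in sedentary nTG M replicate 5, mt-Atp6 was low (1758 CPM, others 2155 to 2430). In trained nTG F replicate 6 the summed share of the 10 mRNAs was high (16.6%, others 15.5% to 16.1%).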

How the results depend on the processing

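With columns by name no member was called in any comparison: the counts 1 (sedentary M), 2 (trained M), 3 (TG against nTG over the strata), 8 (F against M) and 1 (training, TG M) all became 0, and 10 of 15 called fold changes turned sign: in trained M mt-Nd5 0.14 and mt-Nd6 0.17; over the strata mt-Nd4 0.0037, mt-Cytb 0.015 and mt-Co1 0.0228; in F against M mt-Co1 0.0293, mt-Co2 0.0443, mt-Co3 0.0997 and mt-Atp6 0.10; and in training of TG M mt-Co1 -0.0551; the join itself is the difference. For sedentary M, DESeq2, the fit of only the groups compared and the replicate block each called 2 members, and limma and summed copies 3. In trained M, DESeq2, limma and scaling from nuclear genes also called mt-Cytb, and limma also called mt-Nd5 over the strata and mt-Nd2 in F against M. For trained F, limma and the fit of only the groups compared called 1; for training in TG M, limma called 5 and summed copies 3; over the strata, summed copies called 6. Why they differ was not tested. Columns by name alone turned the sign of a called fold change, and a call ended only there and with single libraries left out. Estimates that were not called turned sign with limma, with single libraries left out and with summed copies (mt-Co2 TG sedentary F 0.08 to -0.02, mt-Co3 training nTG M -0.02 to 0.08, and in the male interaction mt-Nd4 -0.01 to 0.01 and mt-Atp6 0.03 to -0.0047). Those gave 8 to 10 for F against M, 3 to 5 over the strata, 1 to 4 for sedentary M, 0 to 3 for trained M, 0 to 1 for trained F and 1 to 5 for training in TG M, and 0 to 0 in the other 6 comparisons. Other scalings moved the median of all genes by at most 0.0142.

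Replicate numbers paired no samples: over 205 pairs of same-numbered libraries the correlation of deviations ran from -0.317 to 0.413 with a median of 0.01, 51 were over 0.1, and 7 of 64 libraries correlated best with their own number. With the replicate block, calls over all genes were 1973 against 2503 for TG in trained F and 3 against 25 for training in nTG F. Those 25 became 131 with DESeq2, 100 with limma, 13 and 12 with the 2 other scalings, 11 at a mean of at least 50 counts and 0 with only the groups compared. The 739 calls for TG in sedentary F became 1269 with limma and 367 with only the groups compared. With columns by name the TG comparisons, training in TG M and F against M called 0 genes, and training in nTG M 132 and in nTG F 42.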

Other observations

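The remaining 3 mRNAs of mtDNA followed no single pattern. In trained males mt-Nd4l, a complex I subunit gene, was lower in TG (-0.36 ± 0.10, adjusted p = 0.00748, edgeR). After training in TG males mt-Nd3, another complex I subunit gene, was higher as deposited (0.68 ± 0.15, adjusted p = 0.00198, edgeR). Its copy on chromosome 1, Gm28438, differs from it by T3C and held 25.5% to 57.3% of their summed counts. The fold change of mt-Nd3 with this copy summed is not reported here. The ATP synthase subunit gene mt-Atp8 was lower in TG over the 4 strata (-0.13 ± 0.05, adjusted p = 0.0272, edgeR) and in females (-0.13 ± 0.05, adjusted p = 0.0413). The 12S rRNA mt-Rnr1 had a mean of 108 CPM after rRNA depletion and was lower in TG over the 4 strata (-0.43 ± 0.16, adjusted p = 0.0296, edgeR), while mt-Rnr2, at 2465 CPM, did not pass (-0.16 ± 0.08, adjusted p = 0.109).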
